A study of Mus musculus with 6 samples.

Results

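The core circadian clock of the liver was described by 10 genes in the RNA of aged mice, *Arntl*, *Clock*, *Npas2*, *Per1*, *Per2*, *Per3*, *Cry1*, *Cry2*, *Nr1d1* and *Nr1d2*, out of 54115 genes in the annotation used. They were taken by name as textbook members of the loop. Livers came from 3 WT and 3 *Sirt7* KO mice, all male, 24 months old and fasted for 16 h before collection. *Sirt7* encodes a nuclear sirtuin, a deacylase that uses NAD. WT and *Sirt7* KO animals were littermates from crosses of heterozygous mice. The line was of mixed background before it was backcrossed to C57BL/6J. Neither genotype carried a treatment other than the fast. The time of day at which each liver was taken is not given in the sources used here, and there is 1 collection per mouse. Each liver was 1 library of whole tissue, so that fewer cells of a type and less RNA per cell cannot be told apart. Separate animals are given by the labels as biological replicates.

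In the clock of mammals, the proteins BMAL1 (encoded by *Arntl*) and CLOCK, or its relative NPAS2, bind E-boxes in the promoters of the *Per* and *Cry* genes and of *Nr1d1* and *Nr1d2*. PER and CRY proteins return to the nucleus and repress this activity, and the REV-ERB proteins made from *Nr1d1* and *Nr1d2* repress *Arntl*. In mouse liver the RNA of *Arntl* therefore peaks around the end of the night and the start of the day, close to opposite to the *Per* genes, and feeding and fasting can shift these rhythms.

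Promoter sequences of the loop are shown because they carry the sites through which its members are wired to each other. RefSeq windows of GRCm38.p6, 300 bases long from 250 bases before to 50 bases after a start, were found for 9 of the 10 genes. They came to 13 windows, with none for *Per2*. Of these windows, 4 that hold matches follow, 5′ to 3′ on the strand of the gene, with motif matches in capitals. The first holds the REV-ERB and ROR element core TAGGTCA, the second an E-box CACGTG, the third a pair of D-boxes (TTANGTAA, the site of the clock output factors DBP, TEF and HLF and of the repressor NFIL3), and the fourth an E-box and, as AACGTG, its variant CACGTT read on the other strand.
Arntl, chr7:113207261-113207560, + strand: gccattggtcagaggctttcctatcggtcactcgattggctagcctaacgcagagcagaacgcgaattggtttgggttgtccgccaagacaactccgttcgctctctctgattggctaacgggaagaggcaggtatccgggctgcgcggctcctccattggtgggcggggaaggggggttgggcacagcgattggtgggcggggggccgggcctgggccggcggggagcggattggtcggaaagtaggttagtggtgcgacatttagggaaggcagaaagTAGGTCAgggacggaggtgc
Per1, chr11:69098699-69098998, + strand: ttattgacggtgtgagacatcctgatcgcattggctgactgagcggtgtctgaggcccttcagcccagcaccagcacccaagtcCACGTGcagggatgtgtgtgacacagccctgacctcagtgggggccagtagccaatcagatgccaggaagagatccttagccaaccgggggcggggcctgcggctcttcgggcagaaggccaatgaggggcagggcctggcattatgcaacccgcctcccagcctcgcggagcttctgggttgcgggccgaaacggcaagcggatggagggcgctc
Per3, chr4:151044616-151044915, - strand: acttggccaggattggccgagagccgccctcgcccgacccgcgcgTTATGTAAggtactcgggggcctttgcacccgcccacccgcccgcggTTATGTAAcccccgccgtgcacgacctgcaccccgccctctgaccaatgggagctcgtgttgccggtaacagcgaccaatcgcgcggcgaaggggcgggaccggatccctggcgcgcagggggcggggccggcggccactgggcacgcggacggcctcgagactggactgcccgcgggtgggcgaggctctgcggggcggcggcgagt
Cry1, chr10:85185005-85185304, - strand: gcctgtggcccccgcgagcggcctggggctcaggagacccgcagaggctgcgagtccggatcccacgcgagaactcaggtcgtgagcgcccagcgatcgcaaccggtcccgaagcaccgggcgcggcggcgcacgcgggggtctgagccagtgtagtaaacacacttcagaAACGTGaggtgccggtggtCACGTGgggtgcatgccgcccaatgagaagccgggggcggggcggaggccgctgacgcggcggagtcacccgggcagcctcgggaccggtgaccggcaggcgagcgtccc

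In the *Arntl* window shown, the element core starts at position 31 counted from the start of that window's transcript. The *Per1* E-box starts 166 bases before the start of transcription, the *Cry1* E-box 60 bases before it and the *Cry1* variant 79 bases before it. Both D-boxes of *Per3* read TTATGTAA and start 205 and 158 bases before the start. The E-box variant was also found in the windows of *Cry2*, 166 bases before the start, and of *Nr1d1*, 28 bases before it, and no motif searched was in those of *Clock*, *Npas2* and *Nr1d2*. A second window of *Arntl* and a second of *Per1*, from other starts, held no match. All 4 motifs were searched on both strands, and no match overlapped another. Of the 13 windows, 2 held CACGTG, 3 CACGTT, 1 TTANGTAA and 1 TAGGTCA. Among all 32851 windows of the table, 7.15% held CACGTG, 4.68% CACGTT, 2.32% TTANGTAA and 2.61% TAGGTCA, so that each is a short word found in many promoters, and a match describes letters and not binding.

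Between 9994860 and 13424776 reads were assigned to transcripts per liver, and 12524 genes had enough reads to be tested. The targeted gene was checked first. *Sirt7* was at 55.2, 45.5 and 47.3 CPM (reads scaled to library size with the factors of the trimmed mean of M-values, TMM) in WT livers, beside 28.6, 41.8 and 40.8 CPM in KO livers. All KO livers were below all WT livers in CPM, but reads remained in the KO livers, and the log2 fold change of -0.41 (SE 0.18) did not pass the test (adjusted p = 0.42 by edgeR). In TPM the order was the opposite, with 34.4, 28.3 and 27.3 in WT and 34.7, 49.9 and 68.0 in KO livers. The isoforms differed. *Sirt7-201* (1727 bases, 10 exons) was given 429, 381 and 408 reads in WT and 124, 135 and 77.5 reads in KO livers, and the short *Sirt7-202* (427 bases, 4 exons) 2.12, 5.12 and 0 reads in WT and 50.5, 54.1 and 93.3 reads in KO livers, which came to 20.2, 26.8 and 42.4 TPM there. *Sirt7-207* (1218 bases, 6 exons) was given 43.0, 0 and 65.3 reads in WT and 83.5, 119 and 192 reads in KO livers. Which exons the mutant allele lacks is not stated in the sources used here, so these reads cannot be told from reads of intact RNA. The paper also measured *Sirt7* in liver by qRT-PCR. Its figure legend explains a mark for not detected, without naming the group so marked. Where the qRT-PCR primers lie in these isoforms was not tested. Hepatocyte markers summed to between 44746 and 50832 CPM in WT and between 48009 and 58740 CPM in *Sirt7* KO livers. Markers of Kupffer cells and macrophages summed to 82.8, 88.9 and 205 CPM in WT and 211, 82.5 and 159 CPM in KO livers, endothelial markers to between 72.5 and 112, stellate cell markers to between 139 and 218, cholangiocyte markers to between 47.3 and 72.7 and lymphocyte markers to between 5.40 and 13.1 over all livers. None of the 37 tested markers of these 6 cell types had an adjusted p under 0.05, or an unadjusted p under 0.05 by edgeR. The high Kupffer sums fell in WT 3, *Sirt7* KO 1 and *Sirt7* KO 3, which include livers of both genotypes. The part of these cells in the clock values was not tested.

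With genes compared per length, the loop spanned a wide range of levels. In TPM, which is scaled to transcript length and library size, over the transcripts of at least 300 bases, *Nr1d1* was the most abundant with 32.3 ± 4.44 (SD, n = 6 livers), followed by *Cry2* with 9.92 ± 2.83, *Nr1d2* with 5.05 ± 1.22, *Per1* with 3.79 ± 1.59 and *Per3* with 3.49 ± 2.65. *Cry1* with 1.97 ± 0.965 TPM, *Arntl* with 1.83 ± 1.27, *Per2* with 1.09 ± 0.621, *Clock* with 1.06 ± 0.263 and *Npas2* with 0.190 ± 0.238 came after. Neighbours in this order overlapped over the 6 livers, except that every liver had more *Nr1d1* than the highest *Cry2* value and less *Npas2* than the lowest *Clock* value. The spread of *Arntl* and *Per3* over livers was large beside their means, while *Nr1d1* varied by 1.38-fold between its lowest and highest CPM, *Per3* by 7.02-fold and *Arntl* by 9.17-fold.

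**Figure D1:**
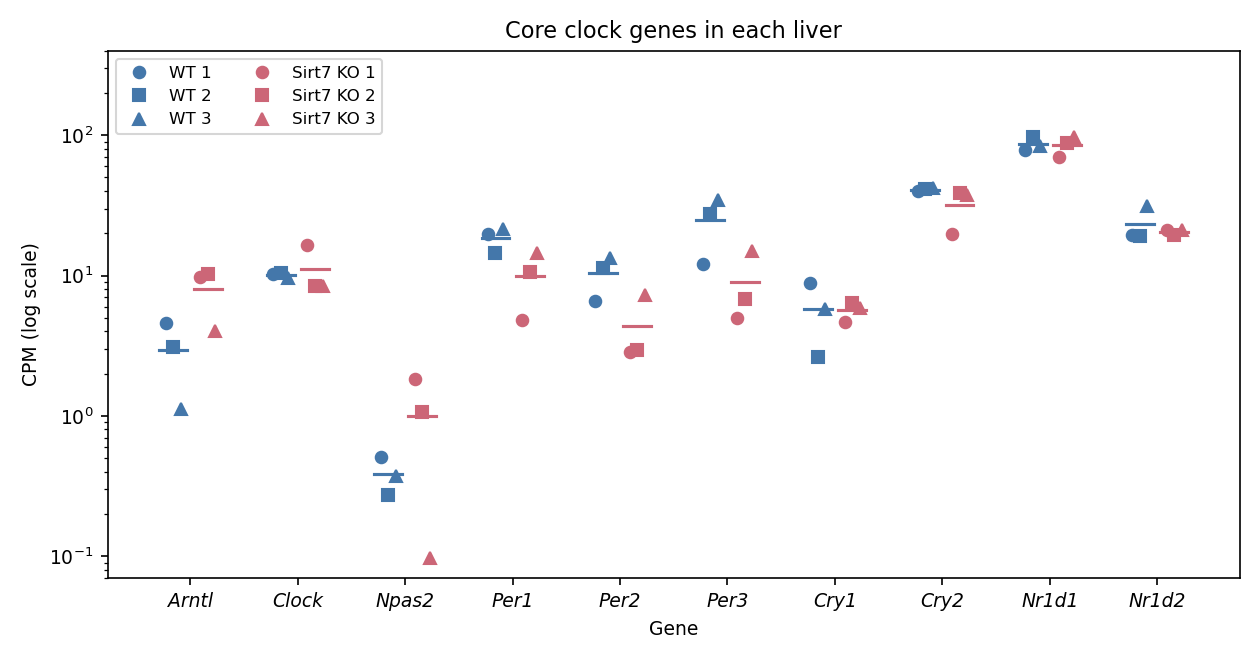
CPM (log axis) of the 10 clock genes in each liver, with blue points for the 3 WT and red points for the 3 *Sirt7* KO mice, marker shape for the replicate number and a line for the mean. *Arntl* lies higher in KO livers 1 and 2, the 3 *Per* genes lie lower there, and *Nr1d1* spans 70.4 to 97.4 CPM.

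Against this background, no clock gene passed the genome-wide test of genotype. Of the 10 genes, 9 had enough reads, and 0 of these had an adjusted p under 0.05 by the edgeR quasi-likelihood test with Benjamini-Hochberg adjustment, where 0.00798% of all tested genes (1 of 12524) did. The smallest adjusted p of the 9 was 0.28. At an unadjusted p under 0.05 there were 4 clock genes, *Arntl*, *Per1*, *Per2* and *Per3*, against 11.3% of all tested genes. Of these 4, *Arntl* was the higher one and the 3 *Per* genes were lower in *Sirt7* KO livers, where 4.78% of all tested genes met that unadjusted p on the lower side. DESeq2 is the tool named in the methods of the study. Without length offsets it put 1 clock gene, *Per3*, under an adjusted p of 0.05, where 1.78% of the genes with an adjusted p were. With length offsets it put 2 there, *Per2* and *Per3*, where 1.93% were. The *Per2* call came with about 1 read on a short isoform in WT 1 and in WT 2. Over transcripts of at least 300 bases, the same test gave *Per2* an adjusted p of 0.15. The count of 4 changed with the liver left out. It was 1 without WT 3 (9.82% of all tested genes), 2 without *Sirt7* KO 2 (7.59%) and 5 without *Sirt7* KO 3 (8.19%). It was 3 without WT 1, 4 without WT 2 and 3 without *Sirt7* KO 1, where the share of all tested genes was not counted. With 1 liver fewer the test also has less power. The genotypes did not overlap for 2 clock genes, *Per1* and *Cry2*, against 16.8% of all tested genes. With 1 liver fewer, where overlap is rarer for any gene, the count was 5 without WT 1 (25.6% of all tested genes) and 5 without *Sirt7* KO 3 (25.4%). On summed gene TPM it was again 2, against 15.9% of all tested genes, but the genes were *Per2* and *Per3*, while *Per1* and *Cry2* overlapped. Over transcripts of at least 300 bases, *Per3* alone of the clock genes did not overlap in TPM. The share of all tested genes was not counted on that measure. Over the 9 tested genes the median log2 fold change was -0.18, with 2 higher and 7 lower in *Sirt7* KO livers, beside a median of -0.01 over all tested genes.

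**Figure D2:**
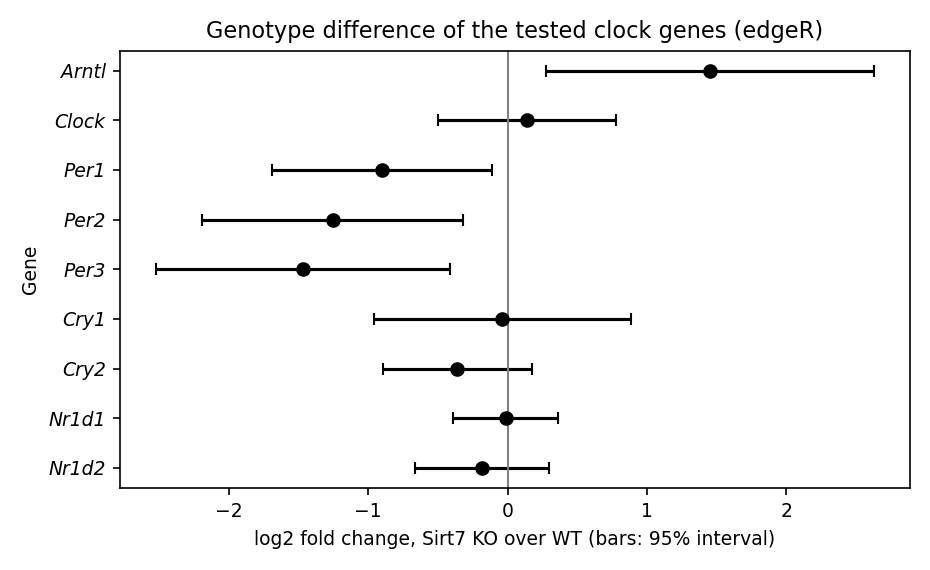
Log2 fold change of *Sirt7* KO over WT (x axis) for the 9 tested clock genes (y axis), with bars for the 95% interval of the edgeR fit, unadjusted. The intervals of *Arntl* and of the 3 *Per* genes leave out 0, those of the other 5 include it, and no adjusted p is under 0.28.

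Among the activators, *Arntl* (ENSMUSG00000055116.8, chr7:113207465-113314126, + strand), which encodes BMAL1, the partner shared by CLOCK and NPAS2, was at 4.57, 3.08 and 1.11 CPM in WT livers and at 9.71, 10.2 and 4.05 CPM in *Sirt7* KO livers. KO 1 and KO 2 were the highest and WT 3 the lowest of the 6, while KO 3 lay below WT 1, so the genotypes overlapped. The means were 2.92 ± 1.74 and 7.98 ± 3.41 CPM (SD, n = 3 each). The log2 fold change was 1.45 (SE 0.52, 95% interval 0.28 to 2.63), or 2.74-fold, with an adjusted p of 0.34 by edgeR. These levels rest on 15 to 106 reads per liver.

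*Clock* (ENSMUSG00000029238.11, chr5:76209868-76304792, - strand), the other member of the activating pair, had 10.2, 10.4 and 9.54 CPM in WT livers and 16.4, 8.48 and 8.38 CPM in *Sirt7* KO livers. KO 1 was the highest and the other KO livers were below all WT livers. Its log2 fold change of 0.14 (SE 0.28, 95% interval -0.50 to 0.78) had an adjusted p of 0.90 by edgeR, and turned to -0.25 without KO 1. *Npas2* (ENSMUSG00000026077.15, chr1:39193731-39363236, + strand), which can stand in for CLOCK, was given 6, 3 and 5 reads in WT and 20, 10 and 1 reads in *Sirt7* KO livers. KO 1 and KO 2, the livers with the most *Arntl*, were also those with the most *Npas2* reads, and KO 3 had the fewest. These counts did not reach the minimum for the test, and a difference was not detectable at this depth.

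The PER proteins form the inhibitory complex together with the CRY proteins, and all 3 *Per* genes had lower mean CPM in *Sirt7* KO livers. *Per1* (ENSMUSG00000020893.17, chr11:69095217-69109960, + strand) was at 19.8, 14.5 and 21.3 CPM in WT livers and at 4.85, 10.6 and 14.4 CPM in *Sirt7* KO livers. The highest KO liver lay just under the lowest WT liver, so the genotypes did not overlap. Its log2 fold change of -0.90 (SE 0.35, 95% interval -1.69 to -0.11) had an adjusted p of 0.37 by edgeR. By exact two-sided permutation of the 6 values p was 0.1, the smallest that 3 against 3 allows. With length offsets in DESeq2 it was -0.37, and without KO 1 it was -0.57. In TPM the genotypes overlapped, with 5.07, 3.17 and 4.67 in WT and 0.990, 5.22 and 3.63 in KO livers. Reads of *Per1* were divided among isoforms in different ways from liver to liver. *Per1-201* was given 115 and 98.3 reads in WT 1 and WT 2 but 0 in WT 3, where *Per1-206* was given 151.

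*Per2* (ENSMUSG00000055866.9, chr1:91415982-91459324, - strand), the *Per* gene whose loss is best known to disturb rhythms, had 6.60, 11.3 and 13.2 CPM in WT livers and 2.84, 2.97 and 7.23 CPM in *Sirt7* KO livers. KO 1 and KO 2 were the lowest, and KO 3 lay above WT 1. The means were 10.4 ± 3.42 and 4.34 ± 2.50 CPM, and the log2 fold change was -1.26 (SE 0.41, 95% interval -2.19 to -0.32, adjusted p = 0.29 by edgeR). With the length offsets in DESeq2 it was -2.98 with an adjusted p of 3.8e-06, and -1.25 with 0.15 once transcripts under 300 bases were left out, an alternative chosen after seeing the data.

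*Per3* (ENSMUSG00000028957.12, chr4:151003652-151044665, - strand), a *Per* gene whose loss leaves rhythms mostly intact, had the widest spread of the 3, with 12.0, 27.3 and 34.7 CPM in WT livers and 4.94, 6.78 and 15.0 CPM in *Sirt7* KO livers. Its livers ranked as for *Per2*, from KO 1, KO 2 and WT 1 up to KO 3, WT 2 and WT 3. The means were 24.7 ± 11.6 and 8.92 ± 5.37 CPM, with a log2 fold change of -1.47 (SE 0.47, 95% interval -2.52 to -0.41), a 2.77-fold lower level in KO livers. Its adjusted p of 0.28 by edgeR was the smallest of the 9 tested clock genes, and DESeq2 without length offsets gave 0.028.

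Of the cryptochromes, the direct repressors of CLOCK and BMAL1, *Cry1* (ENSMUSG00000020038.10, chr10:85131700-85185064, - strand) was at 8.89, 2.63 and 5.77 CPM in WT and 4.67, 6.36 and 5.88 CPM in *Sirt7* KO livers. WT 1 and WT 2 held its highest and lowest values, and all KO livers lay between them. The log2 fold change was -0.04 (SE 0.41, 95% interval -0.96 to 0.88, adjusted p = 0.98 by edgeR), and its sign turned in 6 of 16 alternatives, to 1.66 with length offsets in DESeq2. The isoform *Cry1-203*, 177 bases long, was given 0.79 reads in KO 2 and none elsewhere, which at an effective length of 6.77 bases became 10.3 TPM.

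*Cry2* (ENSMUSG00000068742.11, chr2:92403646-92434043, - strand) was steady in WT livers at 40.0, 41.3 and 41.8 CPM, and stood at 19.8, 38.9 and 37.2 CPM in *Sirt7* KO livers. All KO livers were below all WT livers in CPM, but KO 2 and KO 3 were so by little, and in TPM KO 2 lay above WT 2. KO 1 alone was far below. The log2 fold change was -0.36 (SE 0.24, 95% interval -0.90 to 0.17, adjusted p = 0.62 by edgeR) and -0.11 without KO 1. KO 1 was also the liver with the most *Clock* and the least *Per1*, *Per2*, *Per3* and *Nr1d1*, and had the highest share of reads on mitochondrial genes, 3.17% against 1.65% to 2.68% in the other livers. Whether that share bears on these values was not tested.

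The REV-ERB genes, which encode heme-binding nuclear receptors that repress *Arntl*, did not follow the *Per* genes in size. *Nr1d1* (ENSMUSG00000020889.11, chr11:98767932-98775333, - strand) was at 77.9, 97.4 and 83.6 CPM in WT livers and 70.4, 88.7 and 97.3 CPM in *Sirt7* KO livers. The livers of both genotypes were mixed in order, and the means of 86.3 and 85.5 CPM differed by less than the spread between replicates (SD 13.7 in KO livers, n = 3). The log2 fold change was -0.01 (SE 0.17, 95% interval -0.39 to 0.36, adjusted p = 0.99 by edgeR), with a sign that turned in 2 of 16 alternatives. *Nr1d2* (ENSMUSG00000021775.11, chr14:18204054-18239127, - strand) had 19.3, 19.1 and 31.4 CPM in WT and 21.2, 19.3 and 21.1 CPM in *Sirt7* KO livers. WT 3 was above the other 5 livers, which lay close together. Its log2 fold change of -0.18 (SE 0.21, 95% interval -0.67 to 0.30, adjusted p = 0.80 by edgeR) turned to 0.10 without WT 3 and to 0.22 with length offsets in DESeq2.

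Reads of some members can be shared with other genes. *Nr1d1* overlaps *Thra*, a thyroid hormone receptor gene on the opposite strand, over 263 exon bases, 8.55% of its own, and the library kit does not mark strand. *Thra* was given 82.0 to 105 reads per liver and *Nr1d1* 769 to 1130. *Cry2* overlaps *D930015M05Rik* over 295 exon bases, 4.67% of its own, a gene given at most 3.11 reads, and *Arntl* overlaps *Gm45355* over 33 bases, a gene given no read. Of the words of 31 bases in its transcripts, *Nr1d2* shares 9.51% with *AC170187.1*, *Nr1d1* shares 7.85% with *Thra* and *Cry2* shares 4.11% with other genes, while the other 7 members share at most 0.652%.

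Read liver by liver, *Per2* and *Per3* ran in nearly the opposite order to *Arntl* across both genotypes. From low to high, the livers ranked WT 3, WT 2, KO 3, WT 1, KO 1 and KO 2 for *Arntl*. For *Per2* and *Per3* the order was KO 1, KO 2, WT 1, KO 3, WT 2 and WT 3, which is the reverse but for the neighbours KO 1 and KO 2. *Per1* ran from KO 1, KO 2 and KO 3 to WT 2, WT 1 and WT 3 and so followed this order less closely. WT 3, with the least *Arntl*, had the most *Per1*, *Per2*, *Per3* and *Nr1d2*. Across the 6 livers, Pearson's r of log2(CPM + 0.5) with *Arntl* was -0.96 for *Per2*, -0.95 for *Per3*, -0.77 for *Per1* and -0.72 for *Nr1d2*, and 0.70 for *Npas2*, 0.33 for *Clock* and 0.12 for *Cry1*. For *Cry2* it was -0.58 and for *Nr1d1* -0.32. These values are given as a description over 6 libraries that include both genotypes, with no p.

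**Figure D3:**
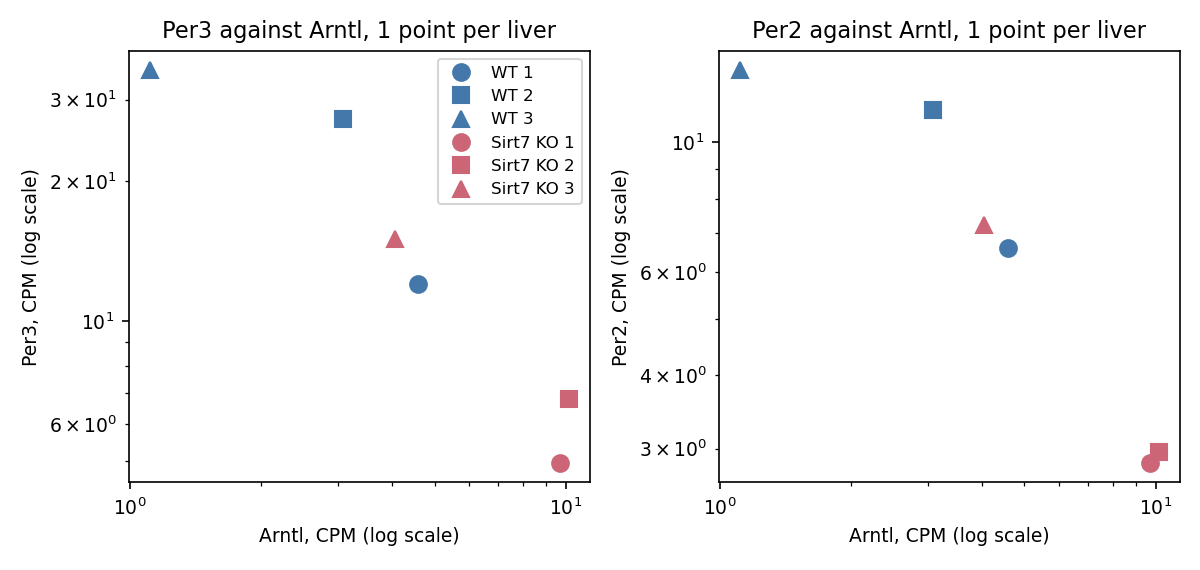
*Per3* (left) and *Per2* (right) against *Arntl*, both axes in CPM on a log scale, 1 point per liver, blue for WT and red for *Sirt7* KO. The points run from WT 3 at the upper left to KO 1 and KO 2 at the lower right, with WT 1 and KO 3 side by side between them.

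The log2 ratio of *Arntl* to *Per3* put this order into 1 number per liver. It was -1.30, -2.96 and -4.45 in WT livers and 0.91, 0.55 and -1.77 in *Sirt7* KO livers, with KO 3 below WT 1. The log2 ratio of *Arntl* to *Nr1d1* was -3.95, -4.77 and -5.71 in WT and -2.80, -3.06 and -4.43 in *Sirt7* KO livers, again with KO 3 below WT 1. A score over all 10 genes, the mean centred log2 level of the genes that peak from late night to dawn (*Arntl*, *Clock*, *Npas2*, *Cry1*) minus that of the genes that peak from day to dusk (*Per1*, *Per2*, *Per3*, *Cry2*, *Nr1d1*, *Nr1d2*), was 0.09, -0.82 and -1.11 in WT and 1.47, 0.77 and -0.40 in *Sirt7* KO livers. WT 1 was the highest WT liver, KO 3 lay among the WT livers, and the genotypes overlapped. The library of WT 1 also had the highest TMM factor, 1.12 against 0.95 to 1.01 in the other livers. Whether that bears on its clock values was not tested. The means were -0.61 ± 0.63 and 0.61 ± 0.94 (SD, n = 3 each), a difference of 1.22 on the log2 scale, which was 1.21 without *Npas2* and 0.80 without KO 1. The score is a description of these livers, and no clock time was read from it.

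**Figure D4:**
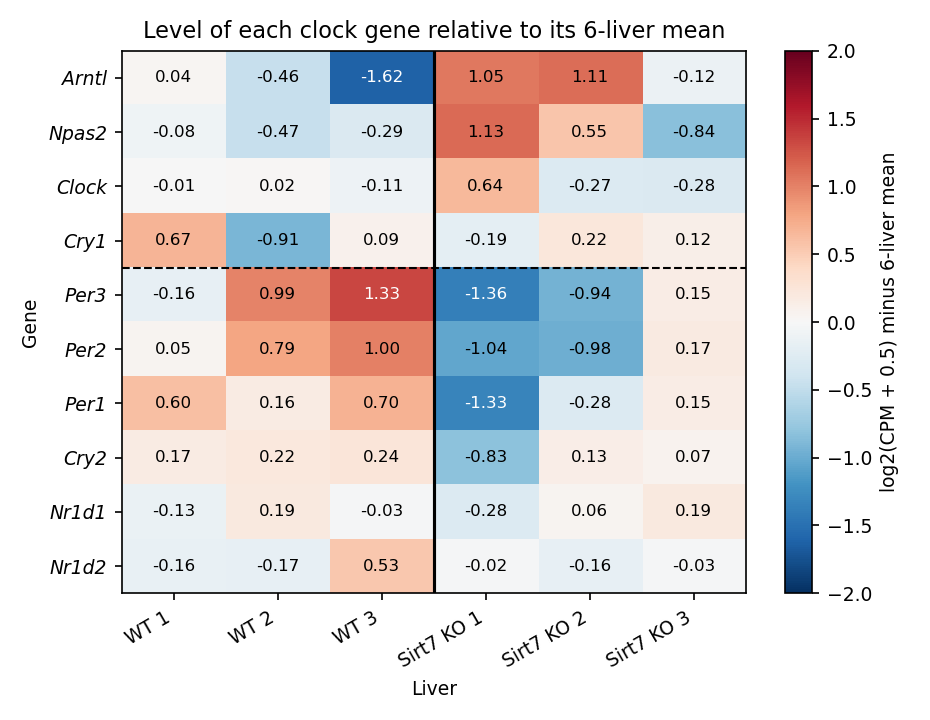
Log2(CPM + 0.5) of each clock gene (rows) in each liver (columns) minus the mean of that gene over the 6 livers, in red where above and blue where below that mean. The dashed line parts late night and dawn genes (top) from day and dusk genes, and the solid line parts WT from *Sirt7* KO livers, with *Arntl* from -1.62 in WT 3 to 1.11 in KO 2 and *Per3* from 1.33 to -0.94 in the same livers.

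For *Per2* the annotation has 2 isoforms, both on the - strand of chromosome 1. *Per2-201* (ENSMUST00000069620.9) is the protein-coding transcript, with 23 exons and 5833 bases. *Per2-202* (ENSMUST00000185298.1, chr1:91447722-91449865) is a processed transcript of 3 exons and 231 bases. Its first exon of 53 bases lies within exon 3 of *Per2-201*, its second exon of 155 bases is exon 4 of *Per2-201*, and only its last 23 bases (chr1:91447722-91447744) lie outside the exons of the long form.

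*Per2-201* was given 77.0, 124 and 179 reads in WT and 31, 28 and 75 reads in *Sirt7* KO livers. *Per2-202* was given 1.05 reads in WT 1, 1.07 in WT 2 and none in WT 3 or any KO liver. The long form thus held 98.7%, 99.1% and 100% of the *Per2* reads in WT and 100% in each KO liver, a mean difference of 0.73 percentage points (exact two-sided permutation p = 0.4). About 1 read on the short form does not show a difference between the genotypes at this depth. In TPM the same reads looked different, because Salmon divides by an effective length of 14.0 bases for *Per2-202* and of 5583 bases for *Per2-201*. The short form reached 5.70 TPM in WT 1 and 5.51 TPM in WT 2, against 1.05 and 1.60 TPM for the long form, whose share of the *Per2* TPM was 15.5% and 22.5% in these livers and 100% in the other 4. On TPM the mean share of the long form differed by 54.0 percentage points between the genotypes. *Per2-201* alone was at 1.05, 1.60 and 1.96 TPM in WT and 0.394, 0.439 and 1.08 TPM in *Sirt7* KO livers, with WT 1 and KO 3 close to each other as in CPM.

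**Figure D5:**
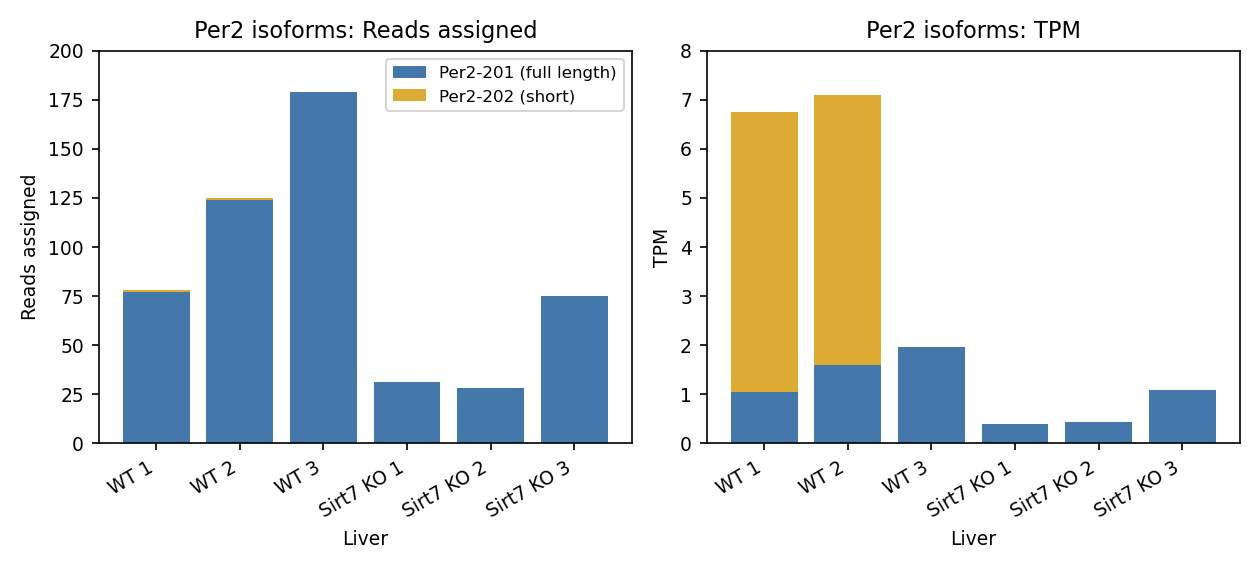
Reads assigned to (left) and TPM of (right) the *Per2* isoforms in each liver, stacked, with the full-length *Per2-201* in blue and the short *Per2-202* in yellow. The short form takes about 1 read in WT 1 and WT 2 but most of the TPM bar there, at 5.70 and 5.51 TPM.

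Other genes that act on the loop were read from a list of 13, of which 12 were tested and 0 had an adjusted p under 0.05 by edgeR. At an unadjusted p under 0.05, 1 was higher and 1 lower in *Sirt7* KO livers, against 11.3% of all tested genes in either direction, and the median log2 fold change was 0.12 (-0.01 over all tested genes). The lower one, *Ciart*, which encodes CHRONO, a repressor of CLOCK and BMAL1 that is itself driven by E-boxes, was at 5.59, 24.6 and 32.9 CPM in WT and 1.56, 6.25 and 7.23 CPM in *Sirt7* KO livers. Its log2 fold change was -2.08 (SE 0.66, adjusted p = 0.28), with WT 1 below KO 2 and KO 3. The higher one, *Csnk1d*, which encodes a kinase that marks PER proteins for decay, was at 46.9, 44.0 and 42.0 CPM in WT and 51.9, 65.9 and 56.7 CPM in KO livers (log2 fold change 0.39, SE 0.14, adjusted p = 0.35). The distance of *Csnk1d* from *Sirt7* was not examined, and a part of DNA from the original background around the targeted gene was not tested. *Fbxl21* and *Fbxw11*, which encode F-box proteins of the ubiquitin ligases that act on CRY and PER, had log2 fold changes of 0.78 (adjusted p = 0.46) and 0.50 (adjusted p = 0.53).

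Of 7 clock output genes, which the loop drives but does not need, all were tested, 0 had an adjusted p under 0.05 by edgeR, and 5 were lower and none higher in *Sirt7* KO livers at an unadjusted p under 0.05, against 4.78% of all tested genes on the lower side. The median log2 fold change was -0.88 (-0.01 over all tested genes). *Tef*, a D-box activator, was at 95.4, 114 and 146 CPM in WT and 44.8, 65.4 and 83.2 CPM in KO livers, without overlap (log2 fold change -0.88, SE 0.24, adjusted p = 0.22). *Nampt*, the NAD salvage enzyme, was at 25.6, 25.4 and 34.3 CPM in WT and 21.2, 15.9 and 17.8 CPM in KO livers, also without overlap (log2 fold change -0.63, SE 0.18, adjusted p = 0.24). *Wee1*, a cell cycle kinase, and *Usp2*, a deubiquitinase, had log2 fold changes of -2.04 (adjusted p = 0.24) and -2.09 (adjusted p = 0.27), and the genotypes overlapped for both. The fifth, *Dbp*, named after its values were seen, was at 43.9, 105 and 126 CPM in WT and 13.5, 43.4 and 61.8 CPM in *Sirt7* KO livers (adjusted p = 0.42), with WT 1 the lowest WT liver as for *Per2* and *Per3*.

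Over the 6 livers, 6674 tested genes with a mean of at least 10 CPM were ranked by their likeness to *Arntl*, by Pearson's r of log2(CPM + 0.5), members left out. Of these, 42 had an r of at least 0.9 and 36 of at most -0.9, together 1.17%. The most alike were *Dexi*, *Hnrnpc*, *Ganab*, *Sphk2* and *St5*, each with an r of 0.98, and the most opposite were *Lima1* (-0.98), *Amn1* (-0.97), *Kxd1* (-0.96), *Slc5a6* and *Yy1* (-0.95 each). *Hnrnpc* was at 50.3, 50.4 and 39.4 CPM in WT and 63.5, 63.0 and 53.7 CPM in *Sirt7* KO livers, and *Lima1* at 63.1, 63.3 and 78.0 CPM in WT and 55.1, 52.8 and 62.7 CPM in KO livers. With 6 livers these likenesses are a description, and the smallest adjusted p between genotypes among these 10 genes was 0.27, for *St5*.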

How the data were processed

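RNA of whole liver from 3 WT and 3 *Sirt7* KO mice was measured with a full-length cDNA kit (SMART-seq HT) and Nextera XT libraries, 1 library per mouse. Per the submitters' processing notes and the paper's methods, the authors used Trim Galore 0.6.5 for trimming and quantified transcripts of GRCm38 with Salmon 1.2.1. They deposited estimated counts per transcript, which are not normalized, and TPM, which is scaled to effective length and to a total per mouse. The annotation release is not given in the sources used here.

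The estimated counts were summed per gene by GENCODE M21 and rounded. Of 140992 transcripts, 139172 matched with the same version, 619 with another version, and 1201 (0.303% to 0.492% of reads) had no gene and were left out. Genotypes were compared with edgeR 4.0.16 (R 4.3.3; quasi-likelihood, TMM, filterByExpr with a minimum count of 10, genotype as the only term), with Benjamini-Hochberg adjustment over 12524 genes. The procedure was first tested on simulated counts. Livers of 1 genotype were never as close as reads of 1 library would be (chi-square of 17.5 or more per gene), so each was 1 sample. This value was 64.9 and 74.3 between WT 1 and the other WT livers, and 26.0 between WT 2 and WT 3. It was 60.8 and 48.3 between KO 1 and the other KO livers, and 17.5 between KO 2 and KO 3. The intervals given with fold changes are those of the edgeR quasi-likelihood fit, unadjusted, and take in the spread between livers as well as counting error. CPM used TMM factors, and log values a pseudocount of 0.5. Promoter windows came from RefSeq (GRCm38.p6).

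The clock genes, gene lists and tests were chosen with earlier results of these data known. The text names all 10 clock genes, the *Per2* isoforms, *Sirt7* (with isoforms chosen after their values were seen) and overlapping genes. It also names up to 4 genes of the smallest unadjusted p in each list of loop regulators, clock outputs, glucocorticoid-responsive and immediate early genes. The 5 genes most like and the 5 most opposite to *Arntl* are named too. For cell type markers only counts and sums are given. Alternatives were other normalizations and filters, DESeq2 1.42.0, length offsets, a replicate block, other pseudocounts, TPM, and leaving out each liver.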

Additional observations from a re-analysis of the deposited data

How the results depend on the processing

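The number of genes called at an adjusted p under 0.05 was 1 of 12524 in edgeR, and 2 of 12524 with total counts or with length offsets. With no filter on low counts it was 631 of 27881. The paper used tximport and DESeq2 and reported far more genes at an adjusted p under 0.05 than edgeR called here. In this re-analysis DESeq2 called 256 of 14348 without and 245 of 12727 with length offsets. Over transcripts of at least 300 bases (added after seeing the data) these offsets gave 242 of 12728. When a liver was left out, edgeR called 0 to 252 genes, with 252 of 12921 without *Sirt7* KO 1. Clock genes called, 0 in edgeR, were 4 with no filter (*Arntl*, *Per1*, *Per2*, *Per3*), 1 in DESeq2 (*Per3*), 2 with its length offsets and 1 with these over transcripts of at least 300 bases. The cause of these differences was not tested, except that the 300-base minimum removes the short *Per2* isoform. Leaving out a liver gave 1 to 5 clock genes at an unadjusted p under 0.05 by edgeR. The 1 came without WT 3 (9.82% of all tested genes) and the 5 without *Sirt7* KO 3 (8.19%). Clock genes without overlap were then 2 to 5. The counts of 5 came without WT 1 (25.6% of all tested genes) and without *Sirt7* KO 3 (25.4%). The *Per2* share differed by 54.0 percentage points on TPM. *Arntl*, *Per1*, *Per2*, *Per3* and *Cry2* kept their sign in all 16 alternatives. The log2 fold change of *Cry1* turned to 1.66 and 1.59 with length offsets in DESeq2 and edgeR, 0.35 with the 300-base minimum and 0.085 with the replicate block, and that of *Nr1d2* to 0.22, 0.21 and 0.22 with the first 3 of these. Without 1 liver, *Cry1* ranged from -0.38 to 0.41, *Nr1d2* from -0.31 to 0.10, *Nr1d1* from -0.12 to 0.11 and *Clock* from -0.25 to 0.31. Total counts moved the median of all genes to -0.11.

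Replicate numbers did not pair the mice (correlations of same-numbered deviations 0.07, 0.08 and -0.04). With the numbers as a replicate block 41 genes and 0 clock genes were called, with the smallest adjusted p 0.061, for *Per3*. Members with few reads, *Npas2* above all, are limited by depth.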

Other observations

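Glucocorticoid hormones rise and fall with the day and with fasting and reach the liver clock through *Per1* and other genes, so 8 glucocorticoid-responsive genes were read beside it. All were tested, 0 had an adjusted p under 0.05 by edgeR, and 1 was lower in *Sirt7* KO livers at an unadjusted p under 0.05, against 4.78% of all tested genes. The median log2 fold change was -0.21, with 3 of the 8 genes higher and 5 lower in *Sirt7* KO livers. *Fkbp5*, which encodes a co-chaperone of the glucocorticoid receptor, was at 42.6, 42.9 and 74.4 CPM in WT and 20.2, 27.9 and 30.6 CPM in KO livers, without overlap (log2 fold change -1.02, SE 0.25, adjusted p = 0.19). *Klf9*, *Sgk1* and *Zbtb16* had log2 fold changes of -0.33 (adjusted p = 0.51), -0.30 (adjusted p = 0.67) and -0.55 (adjusted p = 0.70).

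Of 6 immediate early genes, 5 were tested, 1 had no read in any liver, and 0 had an adjusted p under 0.05 by edgeR, with 1 lower at an unadjusted p under 0.05, against the same 4.78%. This gene, *Jun*, was at 33.6, 18.7 and 22.9 CPM in WT and 15.7, 12.4 and 18.8 CPM in KO livers (log2 fold change -0.68, SE 0.25, adjusted p = 0.34). *Junb*, *Ier2* and *Egr1* had log2 fold changes of 0.17, -0.07 and -0.16, with *Egr1* at 61.0 CPM in WT 3 against 2.90 to 34.0 CPM in the other livers.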
